A study of Mus musculus with 4 samples.

Results

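Il33, Crlf2, Tnfrsf11a, Nfkbia, Relb and Nfkb1 are 6 of the 11049 genes listed for every library of this kidney study, and they cover an alarmin, a pair of cytokine receptors, an inhibitor and 2 subunits of NF-kB signalling. Il33 codes for interleukin-33, a nuclear cytokine that is released from damaged barrier and endothelial cells and alerts immune cells. NF-kB factors are dimers held in the cytoplasm by inhibitors of the IkB family; when a receptor is engaged, the inhibitor is degraded and the dimer enters the nucleus, where it switches on cytokine and adhesion genes and also the inhibitor's own gene. In the canonical branch the dimer holds p50, made from the Nfkb1 product, and in the non-canonical branch, which receptors such as RANK (Tnfrsf11a) can engage, it holds RelB. The genes were selected on their UMI counts (counts of unique transcript molecules) in these same cells, so their levels and ratios are given as a description, without tests.

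The mice were C57BL/6J, 10 to 14 weeks old, and each group's kidneys were pooled before dissociation. The A2 HTN group had hypertension induced with angiotensin II, the SS HTN group had salt sensitive hypertension, and the control group joins a saline control of the first model and a normal diet control of the second. Beads took up first CD31-bearing and then podoplanin-bearing cells, which were sequenced one by one in droplets, to compare renal lymphatic endothelium between hypertension and control and between the models. A2 HTN and SS HTN have 1 library each and control has 2, here control library 1 and control library 2, whose model the sources used here do not give. How many mice made up a pool is not given either, and with 1 pool for each condition no test between groups could be made; the 95% intervals below cover counting error only.

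Endothelial cells were those with at least 3 UMIs of Pecam1, Cdh5, Kdr and Tie1 together and at least 12 per 10000 of their UMIs. They numbered 1223 of 2837 cells in A2 HTN (43.1%), 1517 of 3284 in SS HTN (46.2%) and 145 of 4414 in control (3.29%), where library 1 gave only 19 and library 2 gave 126. Their median depth was 4792 UMIs in A2 HTN, 2371 in SS HTN and 2684 in control, against 863, 1005 and 747 in the other cells of these groups. The other cells carried 16950 to 18534 CPM (UMIs scaled to equal totals) of 10 proximal tubule genes. Prox1, the defining lymphatic transcription factor, stood at 2.17, 8.08 and 0 CPM in the endothelial cells of A2 HTN, SS HTN and control, below the 13.9, 23.3 and 18.5 CPM of the other cells, so the cells as a whole are called endothelial here and not lymphatic. Control library 1 stood apart: its 19 endothelial cells held 8324 CPM of the proximal tubule genes, against 1076 CPM in those of control library 2, 691 CPM in A2 HTN and 1271 CPM in SS HTN. The part of this tubule RNA in the values below was not tested. At most 2 cell barcodes were shared by any pair of libraries.

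Promoter windows (250 bases before to 50 after a transcription start, RefSeq, GRCm38.p6) were found for 4 of the 6 genes, and each was searched on both strands for the kappa-B consensus, the site NF-kB dimers bind. The windows of Nfkbia, the classic feedback target, and of Il33 at its first listed start are shown because the text below turns on these genes; capitals mark the match.
Nfkbia, chr12:55492598-55492897, minus strand: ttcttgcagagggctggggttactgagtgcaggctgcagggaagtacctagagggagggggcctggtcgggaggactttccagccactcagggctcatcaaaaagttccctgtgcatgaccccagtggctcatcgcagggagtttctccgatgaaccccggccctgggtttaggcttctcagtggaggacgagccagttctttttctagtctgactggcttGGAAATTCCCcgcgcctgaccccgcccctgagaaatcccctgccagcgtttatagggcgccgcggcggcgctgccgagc
Il33, chr19:29924863-29925162, plus strand: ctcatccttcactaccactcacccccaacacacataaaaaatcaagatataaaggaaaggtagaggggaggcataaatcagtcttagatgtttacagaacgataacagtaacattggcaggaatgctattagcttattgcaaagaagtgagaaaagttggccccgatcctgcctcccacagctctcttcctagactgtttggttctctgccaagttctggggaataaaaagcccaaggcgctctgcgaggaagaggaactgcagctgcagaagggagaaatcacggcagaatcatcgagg
The Nfkbia window holds 1 match, from base -29 to base -20 relative to the start. The windows of Crlf2, Tnfrsf11a and both listed starts of Il33 hold 0 matches of this consensus, which says nothing of other sites or of sites elsewhere. Of 32851 mouse promoter windows of the same length, 2779 (8.46%) hold a match. The genes lie at chr19:29925114-29960718 (Il33), chr5:109554709-109558993 (Crlf2), chr1:105780718-105847981 (Tnfrsf11a), chr12:55489410-55492647 (Nfkbia), chr7:19606217-19629438 (Relb) and chr3:135584655-135691547 (Nfkb1) on GRCm38, and their UMIs are counted over the gene, mostly from its 3' end.

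Il33, Crlf2 and Nfkbia were past 2-fold higher in endothelial cells, summed as a class, than in the other cells of every group. Tnfrsf11a, Relb and Nfkb1 were below a 2-fold difference from the other cells. Levels are UMIs summed over the cells of a class and scaled to equal totals over the 11049 genes; a ratio is that of CPM + 5 on the log2 scale, and a ratio counts as past 2-fold only where both classes together hold at least 20 UMIs.

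Il33, the alarmin, had 60.7 CPM in A2 HTN, 44.4 CPM in SS HTN and 95.4 CPM in control endothelial cells, from 335, 176 and 36 UMIs. In the other cells it had 16.1, 19.6 and 14.1 CPM. Endothelial cells were higher by 1.64 in A2 HTN, 1.01 in SS HTN and 2.39 in control on the log2 scale. At a stricter marker threshold (6 UMIs and 24 per 10000), which moves weakly marked cells to the other class, the SS HTN ratio was 0.47. The 1416 SS HTN endothelial cells not led by venous markers, a split given below, had 23.1 CPM from 84 UMIs. That level lay within the interval of the SS HTN other cells, 19.6 CPM (14.5 to 26.0). Crlf2, the receptor chain that binds thymic stromal lymphopoietin, had 96.1, 48.7 and 109 CPM in the endothelial cells of A2 HTN, SS HTN and control, and 13.4, 10.2 and 9.0 CPM in the other cells. Its ratios were 2.46, 1.82 and 3.02, and at the stricter threshold 1.19, 1.13 and 3.25.

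Nfkbia, which codes for IkB alpha, was the most abundant of the 6, with 365, 296 and 366 CPM in the endothelial cells of A2 HTN, SS HTN and control and 66.4, 84.6 and 41.8 CPM in the other cells. Its ratios of endothelial over other cells were 2.37, 1.75 and 2.98, near those of Crlf2, and at the stricter threshold 1.27, 1.11 and 2.87. These 3 genes of 6 were past 2-fold in each group, where 17.2% of all genes were in A2 HTN, 15.7% in SS HTN and 19.4% in control. A list of 16 early-response and dissociation-stress genes was also higher in endothelial cells, at 2839, 3144 and 2477 CPM against 1044, 1427 and 1154 CPM in the other cells; whether it bears on Nfkbia was not tested.

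Tnfrsf11a, the receptor RANK, had 64.2, 39.9 and 23.8 CPM in the endothelial cells and 42.3, 32.3 and 27.5 CPM in the other cells of A2 HTN, SS HTN and control. Its ratio of endothelial over other cells was 0.55 (0.24 to 0.97) in A2 HTN but -0.04 there at equal depth per cell, while in SS HTN, at 0.27, and in control, at -0.17, the interval included 0. Relb had 32.8, 19.4 and 37.1 CPM in endothelial cells and 24.6, 18.4 and 17.5 CPM in other cells, and only in control did the ratio, 0.90 (0.14 to 1.92), have an interval above 0. Nfkb1 was even throughout, with 133, 106 and 122 CPM in endothelial cells and 134, 143 and 138 CPM in other cells; only in SS HTN was it lower in endothelial cells beyond counting error, by a log2 ratio of -0.41 (-0.64 to -0.22).

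**Figure D1:**
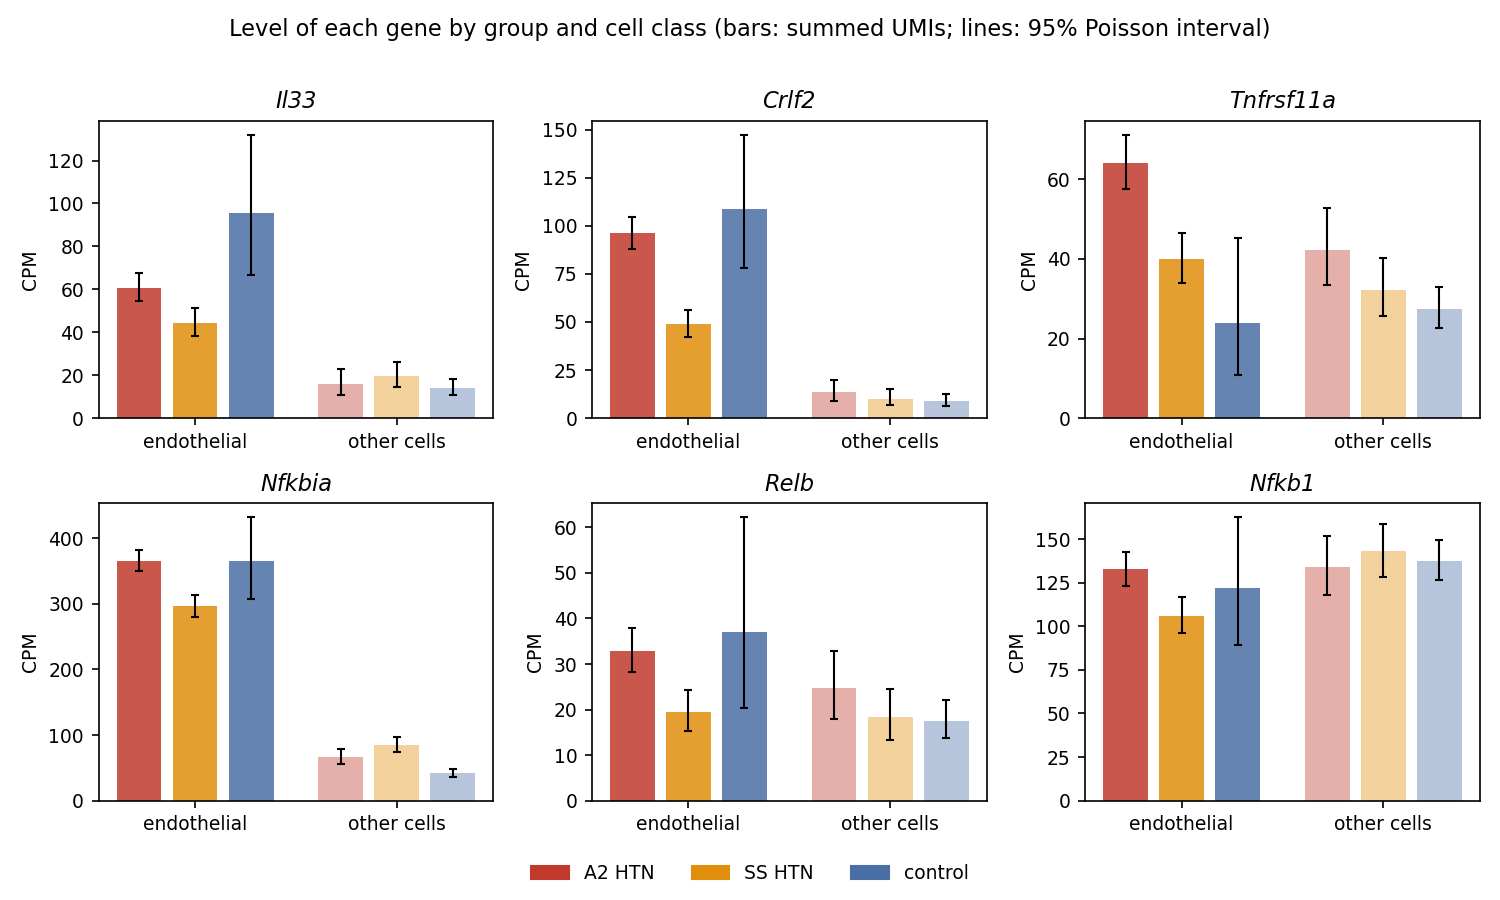
Level of each gene in CPM (y axis, from 0) in endothelial cells and in all other cells of A2 HTN, SS HTN and control; bars are summed UMIs and lines the 95% Poisson interval. Il33, Crlf2 and Nfkbia stand above the other cells in each group, with Il33 in SS HTN at 44.4 against 19.6 CPM. Nfkb1 lies between 106 and 143 CPM in all 6 sums.

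The share of cells with a UMI follows depth, so each cell was also thinned to 1000 UMIs, leaving out shallower cells (29 endothelial cells in A2 HTN, 39 in SS HTN and 10 in control, and 942, 885 and 2806 other cells). Il33 was seen in 18.5%, 7.05% and 15.2% of endothelial cells of A2 HTN, SS HTN and control, and after thinning in 5.86% (4.60 to 7.35), 3.79% (2.87 to 4.89) and 8.15% (4.14 to 14.1). The thinned share in other cells was 1.64% (0.820 to 2.91), 2.15% (1.30 to 3.34) and 1.5% (0.945 to 2.27). For Crlf2 the thinned shares were 9.88%, 3.79% and 12.6% in endothelial cells and 1.34%, 0.907% and 0.820% in other cells. At equal depth the endothelial interval lay above that of the other cells in each group for Crlf2, and in A2 HTN and control for Il33, while in SS HTN the Il33 intervals overlapped.

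Nfkbia had thinned endothelial shares of 27.1%, 26.3% and 30.4%, whose intervals overlapped, although its unthinned shares were 68.9%, 47.1% and 49.7%. Relb, at 3.52%, 1.62% and 4.44%, had intervals that overlapped those of its shares of 2.68%, 2.15% and 1.5% in other cells. The thinned endothelial shares of Nfkb1 (10.9%, 10.4% and 14.1%) did not exceed those of other cells (13.7%, 13.0% and 13.6%) beyond counting error. Those of Tnfrsf11a (4.69%, 3.59% and 1.48%) stood beside 4.76%, 2.72% and 1.91%. For Relb, Nfkb1 and Tnfrsf11a a UMI in an endothelial cell was therefore not read as a sign of enrichment in endothelial cells.

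**Figure D2:**
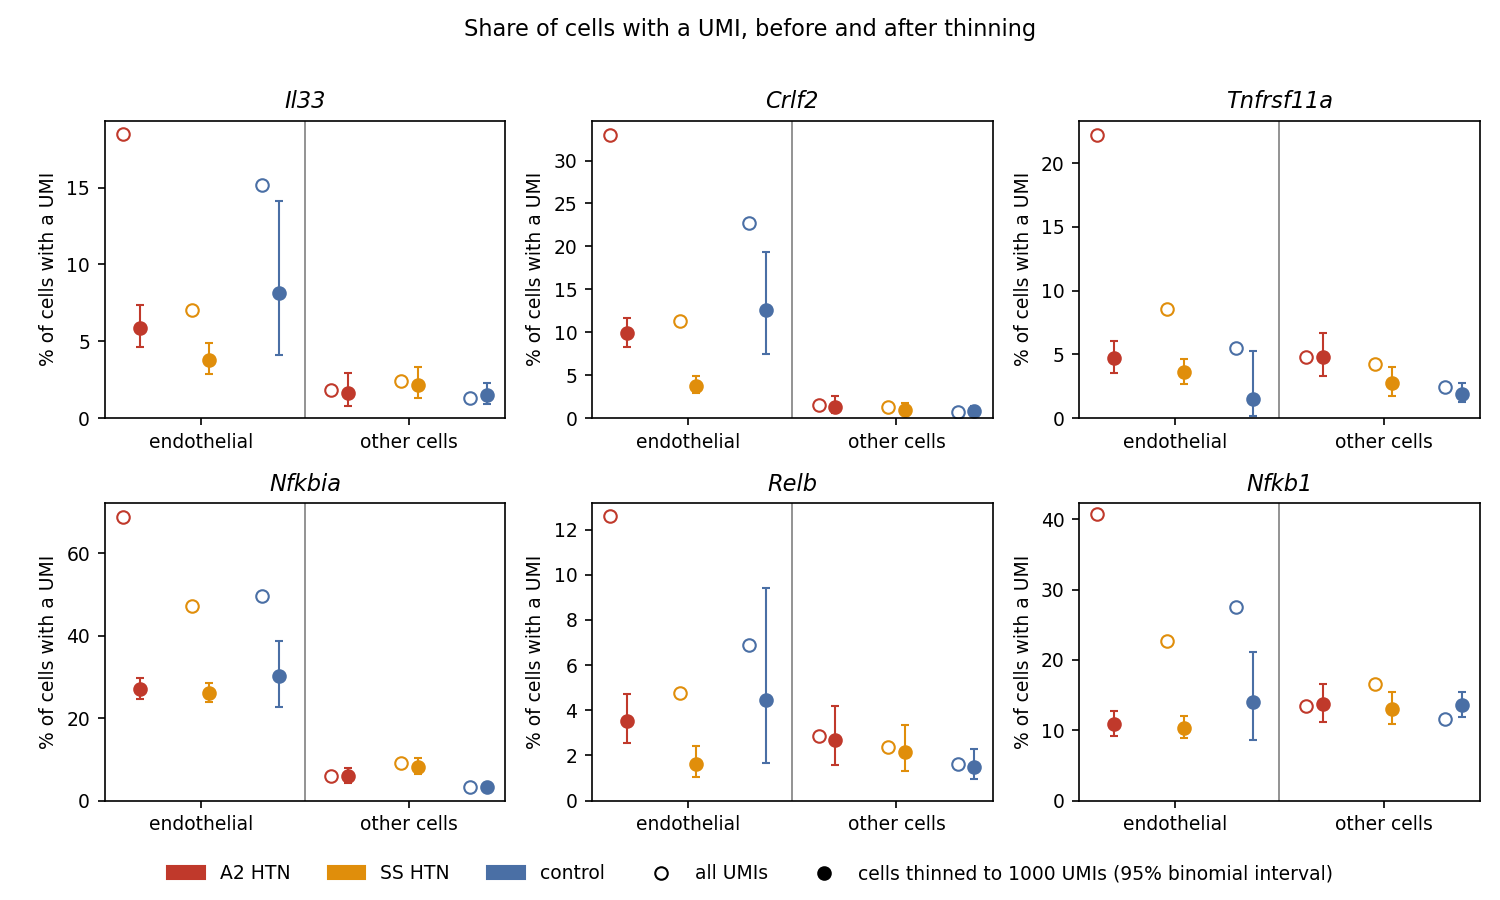
Share of cells with a UMI of each gene (y axis, percent) in endothelial and other cells; open points use all UMIs and filled points cells thinned to 1000 UMIs, with the 95% binomial interval. The gap between A2 HTN and SS HTN seen in the open points of Nfkbia (68.9% and 47.1%) closes after thinning (27.1% and 26.3%), while that of Crlf2 stays (9.88% and 3.79%).

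Between the hypertension models, each of the 6 genes was higher in the endothelial cells of A2 HTN than in those of SS HTN, none of them 2-fold. The log2 ratio was largest for Crlf2, at 0.91 (0.74 to 1.22). It was 0.63 (0.36 to 1.16) for Relb and 0.62 (0.41 to 0.97) for Tnfrsf11a. Il33 followed at 0.41 (0.18 to 0.72), Nfkb1 at 0.31 (0.15 to 0.50) and Nfkbia at 0.30 (0.20 to 0.41). The median of the 6 was 0.52, against -0.03 over the 10697 genes with enough UMIs, of which 0.411% were 2-fold higher and 2.51% 2-fold lower. With cells thinned to 1000 UMIs the ratios were 0.04 for Nfkbia, 0.08 for Nfkb1 and 0.23 for Tnfrsf11a. That of Il33, at 0.39, stayed within its interval, while that of Crlf2 rose to 1.32, above its interval and past 2-fold. In the other cells Tnfrsf11a (0.34), Relb (0.34) and Crlf2 (0.27) were also higher in A2 HTN, with intervals that include 0, while Il33 (-0.22) and Nfkb1 (-0.09) were lower within theirs and Nfkbia was lower by -0.33 (-0.68 to -0.02). Markers of other cells moved with the models as well: endothelial cells of A2 HTN held less proximal tubule RNA (691 against 1271 CPM) and more of the 6 myeloid genes used (461 against 167 CPM). Without cells rich in either, the Il33 ratio was 0.42.

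Against control, Il33 and Crlf2 were lower in SS HTN, and Tnfrsf11a was higher in A2 HTN. Both comparisons use the same control cells. In SS HTN endothelial cells Il33 was lower by a log2 ratio of -1.02 (-1.63 to -0.54) and Crlf2 by -1.08 (-1.65 to -0.63). Nfkbia, at -0.30 (-0.56 to -0.04), was also below control, while Nfkb1, at -0.19, Tnfrsf11a, at 0.64, and Relb, at -0.78 with an upper bound of 0.0048, had intervals that include 0. Thus 0 genes were 2-fold higher and 2 were 2-fold lower, beside 3.44% and 1.76% of all genes. In A2 HTN endothelial cells Il33 was lower than in control by -0.61 (-1.15 to -0.11) and Crlf2 differed by -0.17 (-0.64 to 0.32). Tnfrsf11a was higher by 1.26 (0.49 to 2.57), the 1 gene past 2-fold, beside 2.08% of all genes higher and 3.78% lower. The other cells also held more Tnfrsf11a in A2 HTN, 42.3 CPM (33.5 to 52.7), than in control, 27.5 CPM (22.7 to 33.0). Its thinned endothelial shares, 4.69% (3.56 to 6.05) in A2 HTN and 1.48% (0.180 to 5.25) in control, had overlapping intervals. Relb (-0.16), Nfkbia (0.00) and Nfkb1 (0.12) stayed within counting error.

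The control values rest almost wholly on control library 2. Of the control endothelial UMIs it gave 35 of 36 for Il33, 40 of 41 for Crlf2, all 9 for Tnfrsf11a, 135 of 138 for Nfkbia, 13 of 14 for Relb and 43 of 46 for Nfkb1. Against that library alone, Il33 differed by -0.70 in A2 HTN and by -1.11 in SS HTN, Crlf2 by -0.27 and -1.18, and Tnfrsf11a by 1.15 and 0.52. Against the 19 cells of control library 1 alone, with 1 UMI each of Il33 and Crlf2, the SS HTN ratios turned to 0.54 for Il33 and 0.66 for Crlf2. The A2 HTN ratios likewise became 0.95 for Il33 and 1.57 for Crlf2, and with 3 control UMIs of Nfkbia its ratios became 2.0 in A2 HTN and 1.71 in SS HTN. In the other cells Nfkbia was higher than control in both models, by 0.61 (0.32 to 1.01) in A2 HTN and 0.94 (0.72 to 1.32) in SS HTN. The control libraries themselves differed there, with 30.3 CPM in library 1 and 65.0 CPM in library 2, and against library 2 alone these ratios were 0.03 and 0.36.

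**Figure D3:**
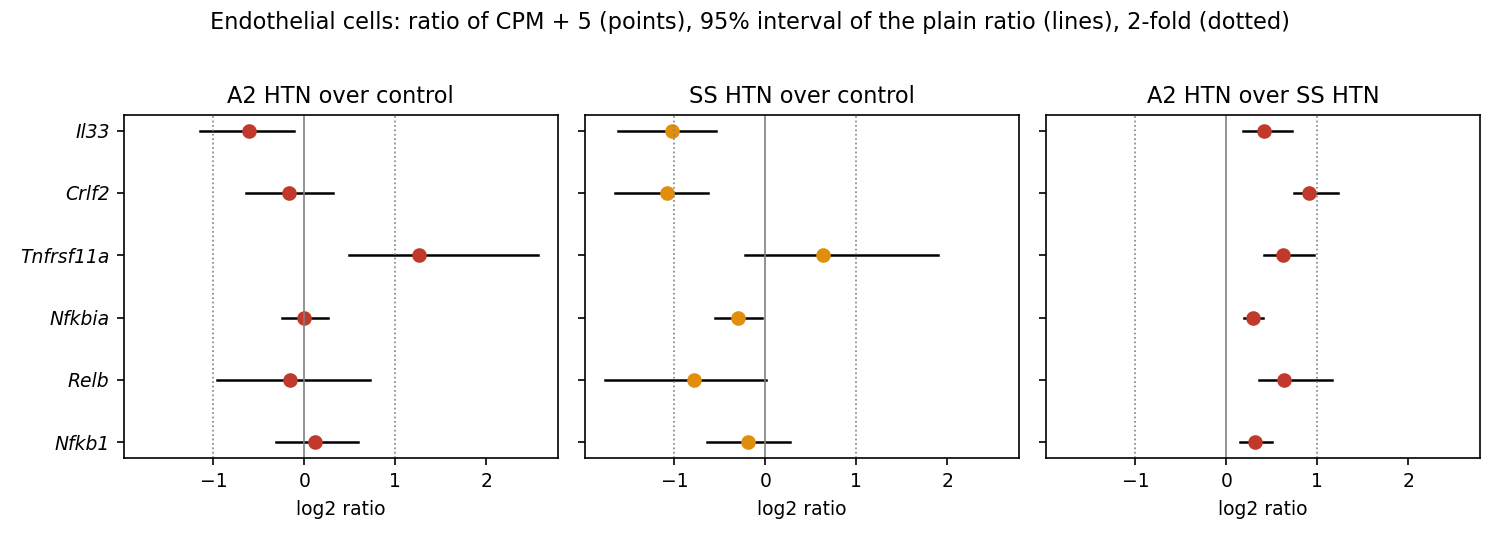
Log2 ratio of CPM + 5 in endothelial cells (points) with the 95% interval of the plain ratio (lines) for A2 HTN over control, SS HTN over control and A2 HTN over SS HTN; dotted lines mark 2-fold. All 6 points of the last panel lie right of 0, from 0.30 to 0.91, and only Tnfrsf11a, Il33 and Crlf2 reach a dotted line in the first 2 panels.

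Il33 differed by the Igfbp3 status of the cell, and in opposite directions in the 2 models. Igfbp3 was counted as a marker of peritubular capillaries, and 70.9% of endothelial cells in A2 HTN, 43.8% in SS HTN and 50.3% in control had a UMI of it. Because 1 UMI made a cell positive, the call follows depth, and the classes need not hold the same kinds of cells in both models. In A2 HTN, Il33 had 67.5 CPM in Igfbp3-positive and 41.8 CPM in Igfbp3-negative cells (0.63, 0.28 to 1.11). In SS HTN it had 28.5 CPM in Igfbp3-positive and 56.7 CPM in Igfbp3-negative cells (-0.88, -1.50 to -0.51). In control the values were 101 and 88.4 CPM (0.18, -0.83 to 1.25). The difference between the models was not tested. After thinning, the A2 HTN ratio was 0.09 and the SS HTN ratio -0.86. The other genes did not divide this way: of the 6, none was past 2-fold by Igfbp3 status in A2 HTN or SS HTN, nor any of the 4 with enough UMIs in control, beside 1.71%, 1.56% and 8.83% of all genes. Beyond Il33, the ratios in A2 HTN and SS HTN lay between -0.40, for Relb in SS HTN, and 0.18, for Tnfrsf11a in SS HTN, with every interval including 0.

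The gap between the models was given for each cell class as well. In Igfbp3-positive cells A2 HTN exceeded SS HTN by 1.11 (0.80 to 1.71) for Il33, 1.01 (0.74 to 1.47) for Crlf2 and 0.87 (0.46 to 1.72) for Relb. Of the 6 genes 2 were past 2-fold there, beside 0.53% of all genes. In Igfbp3-negative cells Il33 was at -0.40 (-0.90 to 0.01), while Crlf2 was still higher in A2 HTN, at 0.89 (0.59 to 1.31), as was Tnfrsf11a, at 0.65 (0.27 to 1.17). None was past 2-fold in that class, beside 0.475% of all genes.

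Most endothelial Il33 in SS HTN, 52.3% of its UMIs, sat in a small set of cells with venous markers. Each endothelial cell was assigned to the marker set in which it stood highest relative to the mean of the A2 HTN, SS HTN and control library 2 endothelial cells, out of venous (Nr2f2, Ephb4, Ptn and Sema3d), peritubular, medullary vasa recta, arterial and glomerular sets, with at least 3 UMIs. The sets give a ranking of cells and not cell types, and the split was made after the Il33 values had been seen. Igfbp3 is itself a gene of the peritubular set, so which set leads a cell depends in part on its Igfbp3 UMIs. In SS HTN the venous set led in 101 cells, 6.66% of the endothelial cells, and these held 92 of the 176 Il33 UMIs. Their Il33 level was 290 CPM (234 to 355). In control the 11 venous-led cells, all of library 2, had 274 CPM (131 to 504) from 10 UMIs. In A2 HTN the venous set led in 216 cells (17.7%), which held 31.3% of the Il33 UMIs at 97.1 CPM (79.4 to 118). Another set came within 80% of the leading one in 46 of the 216 cells in A2 HTN and in 5 of the 101 in SS HTN. Of the venous-led cells, 71.3% were Igfbp3-positive in A2 HTN and 24.8% in SS HTN. The shares were 84.5% and 61.9% of peritubular-led, 66.4% and 49.9% of arterial-led, 56.1% and 39.6% of medullary-led, and 34.7% and 12.8% of glomerular-led cells. An Igfbp3-positive cell was therefore not always led by peritubular markers.

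Among the other sets, cells led by peritubular markers had 68.5 CPM of Il33 in A2 HTN, 41.0 CPM in SS HTN and 102 CPM in control. Arterial-led cells had 38.8 CPM in A2 HTN, 8.30 CPM in SS HTN and, from 7 UMIs in 15 cells, 156 CPM in control. Glomerular-led cells were lowest in the hypertension groups, with 17.3 CPM in A2 HTN and 5.08 CPM in SS HTN, beside 16.2 CPM in control from 1 UMI. Medullary-led cells had 31.7 CPM in A2 HTN, 29.4 CPM in SS HTN and, from 2 UMIs, 31.9 CPM in control. No other gene of the 6 was gathered this way: the venous-led cells of SS HTN held 8.43% of the Nfkbia, 9.09% of the Relb, 10.4% of the Crlf2, 10.5% of the Nfkb1 and 13.9% of the Tnfrsf11a UMIs. Tnfrsf11a was low in the glomerular-led cells of SS HTN, with 10.2 CPM (3.73 to 22.1), against 38.1 CPM (19.0 to 68.2) in those of A2 HTN.

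**Figure D4:**
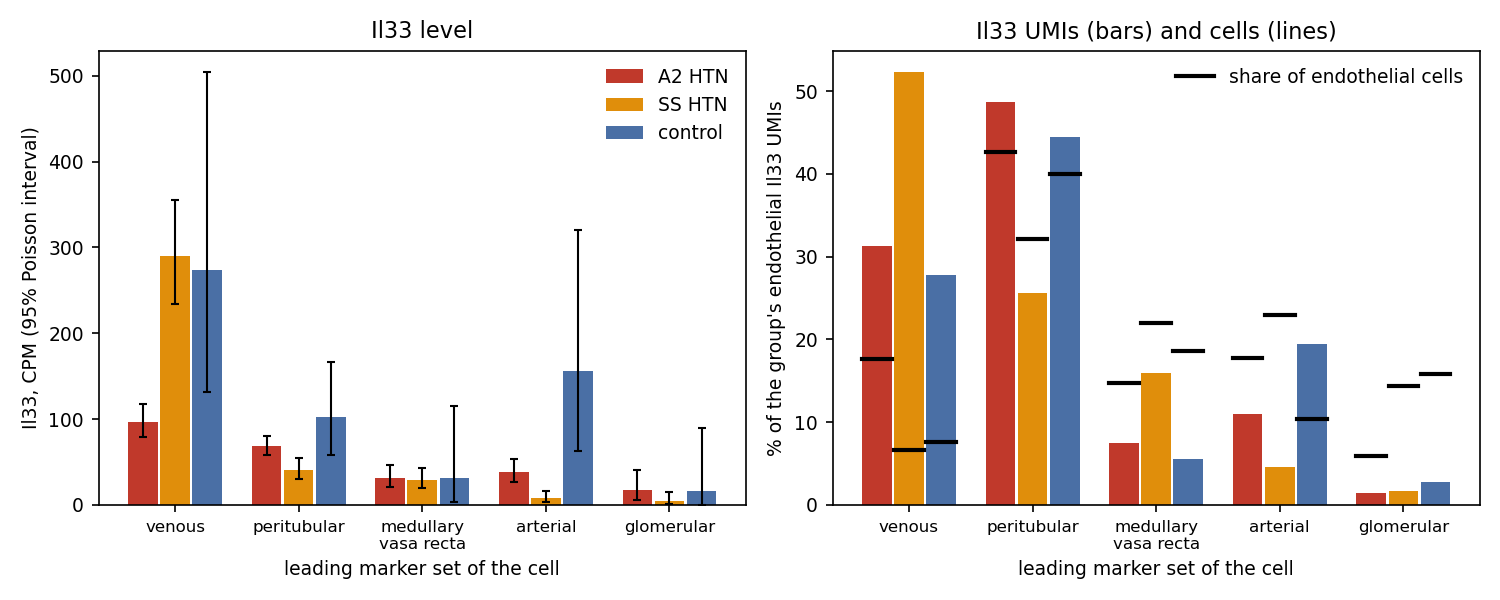
Left, Il33 level in CPM with its 95% Poisson interval in endothelial cells by leading marker set, for A2 HTN, SS HTN and control. Right, the percentage of each group's endothelial Il33 UMIs in each set (bars) and of its endothelial cells (black lines). In SS HTN the venous bar reaches 52.3% above a line at 6.66%.

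Without the venous-led cells no group had an Il33 ratio by Igfbp3 status below 0. The 2 splits are not independent, because Igfbp3 belongs to the peritubular set that competes with the venous set for each cell. How far this shapes the ratios below was not tested. In the remaining endothelial cells the Il33 ratio of Igfbp3-positive over Igfbp3-negative cells was 0.88 (0.46 to 1.55) in A2 HTN, 0.29 (-0.30 to 1.01) in SS HTN and 0.60 (-0.60 to 1.99) in control. Within the venous-led cells it was 0.16 (-0.49 to 0.87) in A2 HTN, with 100 CPM in 154 Igfbp3-positive and 89.0 CPM in 62 Igfbp3-negative cells. In SS HTN it was -2.12 (-3.68 to -1.01), with 78.1 CPM in 25 Igfbp3-positive and 357 CPM in 76 Igfbp3-negative cells. The 2 models also parted by cell set: A2 HTN over SS HTN was -1.53 (-2.0 to -1.16) in venous-led cells and 1.02 (0.80 to 1.55) in the rest. The venous-led cells were unlike in their own markers. In A2 HTN and SS HTN they had 9.25 and 765 CPM of Ptn, 258 and 554 of Sema3d, 342 and 595 of Nr2f2, and 366 and 422 of Ephb4. The minimum of 3 UMIs also met unequal depth, with endothelial medians of 4792 and 2371 UMIs. Whether the Il33 gap follows from which cells were gathered was not tested. SS HTN over control was 0.08 (-0.86 to 1.19) in venous-led cells and -1.53 (-2.38 to -1.03) in the rest. The SS HTN pattern also leaned on few cells: without the 10 endothelial cells richest in Il33, where 1 cell held up to 9 UMIs, its Igfbp3 ratio was -0.31.

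**Figure D5:**
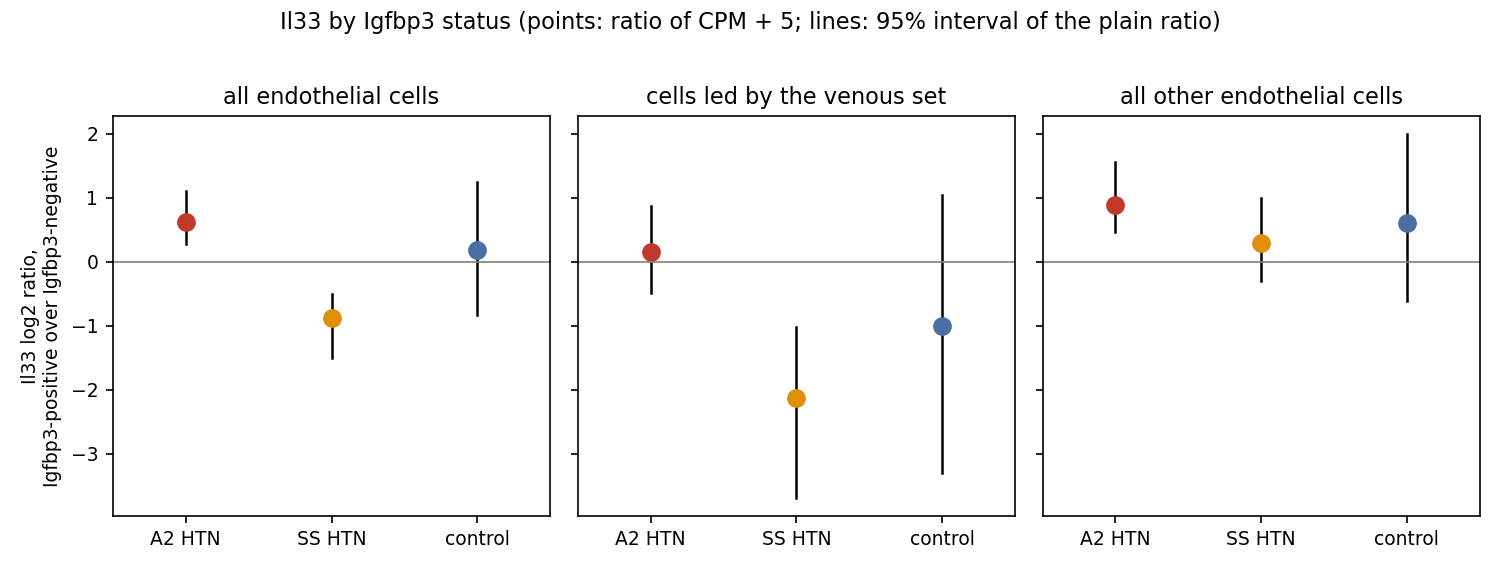
Il33 log2 ratio of Igfbp3-positive over Igfbp3-negative cells (points, CPM + 5) with the 95% interval of the plain ratio (lines) in all endothelial cells, in those led by the venous set and in all others. The SS HTN point is at -0.88, -2.12 and 0.29 in the 3 panels.

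The venous-led cells of SS HTN also held most of its endothelial Prox1, and Sema3d stands on both the venous and the lymphatic list. Of 32 Prox1 UMIs in the endothelial cells of SS HTN, 25 lay in 8 of the 101 venous-led cells, at 78.7 CPM (51.0 to 116), against 1.92 CPM (0.772 to 3.96) in the other 1416. In A2 HTN Prox1 had 2.77 CPM in venous-led and 2.03 CPM in the other endothelial cells, and in control it was at 0 in both. The other lymphatic genes held went both ways in SS HTN. Nrp2, a co-receptor, had 406 CPM (339 to 483) in venous-led and 172 CPM (159 to 186) in the other endothelial cells, and Itga9, an integrin, 167 CPM (125 to 218) and 93.0 CPM (83.4 to 103). Flt4, the lymphatic growth factor receptor VEGFR3, had 66.1 CPM (40.9 to 101) and 81.5 CPM (72.5 to 91.3). Pdpn and Lyve1 were not among the genes used here.

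In SS HTN the 15 endothelial cells with a Prox1 UMI held 19 Il33 UMIs, at 395 CPM (238 to 617), against 40.1 CPM (34.1 to 46.9) in the 1502 without one. The 37 cells with a Ptn UMI held 60 of the 176 Il33 UMIs, at 457 CPM (348 to 588), against 30.3 CPM (25 to 36.3) in the 1480 without one. In A2 HTN the 11 Prox1-positive cells held 1 Il33 UMI and the 10 Ptn-positive cells held 7. Vcam1, an adhesion gene for leukocytes, shared the venous-led cells in each group, with 190 CPM in A2 HTN, 378 CPM in SS HTN and 329 CPM in control, against 43.5, 29.9 and 8.80 CPM in the other endothelial cells. These splits by Prox1 and Ptn were made after the values had been seen, and whether the cells are venous or lymphatic was not tested.

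Cells with an Il33 UMI carried the same genes in SS HTN. The 107 Il33-positive endothelial cells had 602 CPM of Ptn (pleiotrophin, a secreted growth factor), against 16.5 CPM in the 1410 Il33-negative cells, a log2 ratio of 4.82. Nr2f2, a transcription factor of vein identity, had 361 against 62.3 CPM, and Sema3d, a guidance ligand, 332 against 39.0 CPM. Igf1, counted in the medullary set, had 326 against 81.3 CPM. Sox17, a factor of arterial endothelium, had 154 against 557 CPM, and the glomerular marker Pi16 87.8 against 393 CPM. In A2 HTN the 226 Il33-positive cells differed less from the 997 Il33-negative ones: Nr2f2 had 150 against 90.5 CPM, Sema3d 103 against 68.2 CPM, and Ptn only 7.15 against 1.82 CPM from 8 UMIs in each. There the capillary markers Igfbp3, with 2630 against 1524 CPM, and Npr3, with 619 against 406 CPM, were higher and Sox17, with 223 against 418 CPM, was lower. Cells with an Il33 UMI were deeper, with a median of 5120 against 4646 UMIs in A2 HTN and 2710 against 2326.5 in SS HTN. The other 5 genes moved little with Il33: Nfkbia had a ratio of 0.15 in A2 HTN and 0.07 in SS HTN. Only Tnfrsf11a in A2 HTN (0.39, 0.06 to 0.77) and Nfkb1 in SS HTN (0.57, 0.13 to 1.03) had intervals above 0.

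Over the 9 sums of 3 groups and 3 cell classes (Igfbp3-positive, Igfbp3-negative and other cells), levels of Crlf2 and Nfkbia ran together (Pearson r = 0.96), as did Il33 with Crlf2 (0.91) and with Nfkbia (0.88). These sums share libraries and depth, and the endothelial over other difference enters every one of these values. Nfkb1 ran against Nfkbia (-0.58) and Crlf2 (-0.43). Among 11041 genes with enough UMIs, those most like Il33 were Enho (0.972), Psmd10 (0.972) and Nostrin (0.966), an endothelial nitric oxide synthase partner. Those most like Nfkbia were Shank3 (0.998), H3f3a (0.998) and Tmem50a (0.997). Those named for Crlf2 were Gm15489 (0.993) and Vdac2 (0.990), and Tnfrsf11a was most like Mvp (0.97), Use1 (0.966) and Mex3c (0.961). For Relb the nearest were Sirt2 (0.929), Commd9 (0.924) and Clptm1l (0.919), and for Nfkb1 they were Zfp628 (0.962), Slc25a11 (0.922) and Fuca1 (0.918).

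Across the wider pathway, list medians between the models lay from 0.00 to 0.41. All 5 NF-kB subunit genes were measured, and 4 were higher in A2 HTN than in SS HTN endothelial cells. The median was 0.31, which is the ratio of Nfkb1 itself, against -0.03 over all genes. In the other cells the subunit median was 0.34, with 3 of 5 higher, against 0.00 over all genes. Besides Relb and Nfkb1, Nfkb2, which gives p52, was at 0.35 (-0.01 to 0.92) and Rela, the p65 subunit, at 0.19 (-0.05 to 0.45). Of 23 kinases and adaptors 12 were higher and 11 lower, with a median of 0.00. Among them Map3k14, the kinase NIK of the non-canonical branch, was at 0.59 (0.33 to 1.06) and the adaptor Myd88 at 0.68 (0.40 to 1.31), while the kinase Irak2 was at -0.36 (-0.65 to -0.15) and Malt1, a signalling protease, at -0.31 (-0.68 to -0.03). Of the 8 inhibitors held, 4 were higher, Nfkbia among them, and 4 lower, with a median of 0.04. Of 10 receptors held 5 were higher, with Crlf2 and Tnfrsf11a counted in, and 5 lower (0.13). Tnfrsf1a, the main receptor for tumour necrosis factor, was at 0.71 (0.58 to 0.88) and Cd40 at 0.64 (0.39 to 1.10). The second receptor for tumour necrosis factor, Tnfrsf1b, was at -0.45 (-1.13 to -0.10). These genes were taken from both ends of each list after their values were seen. All 3 ligands held, Il33 among them, were higher, and their median of 0.41 is the ratio of Il33 itself. The 5 kinases and factors below the lymphopoietin receptor, Jak1, Jak2, Tyk2, Stat5a and Stat5b, had a median of 0.02.

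Of 10 NF-kB target genes held out of 18, 8 were higher in A2 HTN than in SS HTN endothelial cells. Their median was 0.13 against -0.03 over all genes. In the other cells 6 of 10 were higher, with a median of 0.09 against 0.00 over all genes. Icam1 and Irf1, given next, are among the 8 higher targets, and the 2 lower ones are not named. Icam1, an adhesion receptor for leukocytes, had 106 CPM in A2 HTN and 54.0 CPM in SS HTN (0.91, 0.74 to 1.2), and Irf1, an interferon-response factor, 188 and 118 CPM (0.65, 0.52 to 0.83). Vcam1 was divided by Igfbp3 in SS HTN as Il33 was, with 22.7 CPM in Igfbp3-positive and 84.8 CPM in Igfbp3-negative cells (-1.70, -2.44 to -1.40). In A2 HTN it had 68.5 and 82.3 CPM in these classes. None of the genes of these 7 pathway lists was past 2-fold between the models over all endothelial cells. In the stress and early-response list 1 of 16 was, Hspa1b, with 67.6 CPM in A2 HTN and 161 CPM in SS HTN (-1.19, -1.44 to -1.06), and its median was -0.11.

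Against control, the pathway genes past 2-fold were those already described: Tnfrsf11a in A2 HTN, and Il33 and Crlf2 in SS HTN. The stress genes added 3 in SS HTN, where Hsp90aa1 had 404 CPM against 146 CPM in control (1.44, 1.08 to 1.89) and Hspa1b 161 against 66.2 CPM (1.22, 0.70 to 1.92). Fos, an early-response factor, had 78 UMIs in SS HTN and 0 in control, at least 2.48-fold higher when the control is set to the 3 counts that a count of 0 allows. In A2 HTN over control 1 of the 16 stress genes was past 2-fold, again Fos, with 45 UMIs against 0, but its 8.16 CPM is close to the 7.95 CPM that the control's count of 0 allows. Subunit medians, with Relb and Nfkb1 counted in, were 0.12 in A2 HTN over control and -0.11 in SS HTN over control. In the first, 3 of 5 were higher, and in the second, 5 of 5 were lower. Target medians were 0.15 and 0.04.

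Cells just inside the endothelial threshold carried few of the endothelial UMIs of these genes, while those just outside carried a larger part of the other cells' UMIs. In A2 HTN the 59 cells just inside it held 2 UMIs of Il33, 13 of Crlf2 and 35 of Nfkbia among 147467. The 163 just outside held 4 of the other cells' 30 Il33 UMIs, 9 of 25 for Crlf2 and 37 of 124 for Nfkbia. They held 305428 of the 1867322 UMIs of the other cells. In SS HTN the 141 just inside held 5, 7 and 72 among 281673. The 235 just outside held 8 of 48, 6 of 25 and 60 of 207, in 483461 of 2447388 UMIs.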

How the data were processed

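The 4 samples are droplet-based single-cell libraries of pooled mouse kidney cells. Values deposited by the authors are raw UMI counts, whole numbers with a row for each gene and a column for each cell. Per the submitters' processing notes, mm10, Seurat 4.1 and Cell Ranger 7.0.0 were used, with no role given. Tables were matched to groups by name, and the control table's barcode endings separated its libraries. A table joining both hypertension libraries served as an alternative. No table lists mitochondrial genes.

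UMIs were summed per library and class over the 11049 genes of all 3 library tables (98.7% to 99.1% of UMIs) and scaled to CPM, with Python 3.11.15, numpy 2.4.6, scipy 1.17.1 and pandas 2.3.3. A ratio is log2 of CPM + 5, which makes differences of low genes look smaller; the interval beside it is that of the ratio without the 5 CPM, exact and conditional on the summed UMIs (Clopper-Pearson). CPM have exact Poisson and shares exact binomial intervals, at 95%. The interval and ratio code was tested on simulated data. Doublets were not removed, and cells are not replicates, so no p-value was computed.

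Genes named were the 6 members, list genes past 2-fold with an interval that leaves out 1 (at least 20 UMIs, at most 25 per comparison), and the 3 genes most like each member over 9 sums, of which 1 is not reported here; further list genes were named after their values were seen. The members and lists were chosen with earlier results of these data known. Alternatives were another endothelial threshold, pseudocount, total, weighting or depth per cell, cells without tubule or myeloid markers, and each control library left out.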

Additional observations from a re-analysis of the deposited data

Results flagged for a closer look

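Il33 stood in opposite directions in the 2 hypertension models when endothelial cells were split by Igfbp3. The log2 ratio of Igfbp3-positive over Igfbp3-negative cells was 0.63 in A2 HTN and -0.88 in SS HTN, and neither interval of counting error included 0. With 1 library for each model the difference was not tested. In A2 HTN it was 0.09 after thinning to 1000 UMIs, and in SS HTN it was 0.29 without the cells led by the venous marker set. Which cells that set leads depends in part on Igfbp3 itself.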

How the results depend on the processing

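Of 531 values of the 6 genes under other settings, 493 kept their direction and 489 stayed inside the counting interval. Without control library 2, which leaves 19 control endothelial cells, SS HTN over control reversed to 0.54 for Il33 and 0.66 for Crlf2; without library 1 these were -1.11 and -1.18. The signs of Il33 (0.95), Crlf2 (1.57) and Nfkbia (2.0) in A2 HTN turned too without library 2. So did those of Nfkbia (1.71) and Nfkb1 (0.27) in SS HTN. Relb in A2 HTN turned as well, with 32.8 CPM against 29.1 CPM from 1 UMI in library 1. The 1 gene past 2-fold in A2 HTN over control became 0 with a pseudocount of 20 CPM, 0 in Igfbp3-positive cells only, and 1 to 3 when a control library was left out. The 2 genes past 2-fold in SS HTN over control became 0 with a pseudocount of 20 CPM and 1 as a mean over cells; Il33, at -1.02, lies close to the limit. The 0 genes in A2 HTN over SS HTN became 1, Crlf2, after thinning and 2 in Igfbp3-positive cells. Thinning gave 5, 13 and 1 pathway genes past 2-fold in A2 HTN over control, SS HTN over control and A2 HTN over SS HTN, against 1, 2 and 0, and leaving out control library 2 gave 32 and 28 in the comparisons with control. The cause of these shifts was not tested. No paired analysis was possible because each model has 1 library and the control libraries are not tied to a model in the sources used here.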
